A study of Homo sapiens with 54 samples.

Results

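The comparison set *TRA2B* overexpression (TRA2B-OE) against a luciferase control (Luc) in LN319 glioma cells in which *TRA2A* had been knocked out (KO). Its members were the 6 RNA-seq libraries that the labels give as LN319 with TRA2B-OE and *TRA2A* KO (replicates 1 to 3) or with Luc and *TRA2A* KO (replicates 1 to 3), of 54 libraries in the series. Both groups stably expressed a cDNA, of *TRA2B* or of luciferase, and both received Cas9 with guides against *TRA2A* from a lentivirus about a week before collection. The same overexpression under control guides (6 LN319 libraries, Control KO) and after *TRA2A* KO in LN229, another glioma line (6 libraries), served for comparison. The labels do not say that replicates came from separate cultures, so p-values measure the spread between these libraries, which may be technical. The *TRA2B* cDNA came from NCI-H23 cells, and the Luc and TRA2B-OE cells are separately made populations, so a difference between populations and an effect of *TRA2B* cannot be told apart.

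TRA2A and TRA2B are paralogous splicing activators of the SR-like family. They bind GAA-rich exonic sequences, often with AGAA at the core, and promote inclusion of the exon they bind. Each can also promote a poison exon in transcripts of the paralogs, which lowers their RNA through nonsense-mediated decay (NMD), so that the level of one bears on the level of the other.

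The 3 guides against *TRA2A* that are listed for Cas9 are shown because both groups received guides against this gene. Which of them was used for these libraries is not given in the sources used here. All 3 match the coding part of exon 4 of *TRA2A* (ENSG00000164548.12, chr7:23504780-23532041, minus strand, hg38) on the strand of the gene. The 3 letters in capitals are the PAM, read from the reference genome.
TRA2A sg4, chr7:23513023-23513042: tcagtttgtacacaacagagAGG
TRA2A sg5, chr7:23512982-23513001: tctcgatatggaccattgagTGG
TRA2A sg6, chr7:23512951-23512970: tggtttatgatcagcgaactGGG
Over the whole *TRA2B* gene (ENSG00000136527.19, chr3:185914558-185938103, minus strand), the nearest site beside an NGG PAM differed from sg4 at 9 positions. It differed from sg5 at 8 positions and from sg6 at 6.

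The added *TRA2B* was plain in all libraries. Levels are in TPM as deposited, a relative abundance corrected for transcript length and set to a common total in each library. *TRA2B* stood at 989, 964 and 971 TPM in the TRA2B-OE *TRA2A* KO libraries and at 97.4, 98.5 and 116 TPM in the Luc *TRA2A* KO libraries. The groups did not overlap, and the log2 fold change, here and below on the log2(scaled TPM + 0.1) scale, was 3.16 ± 0.09 (SE, n = 3 per group), an 8.96-fold rise (limma, Benjamini-Hochberg adjusted p = 1.21e-09). Under Control KO the same overexpression raised *TRA2B* from 87.6 ± 3.59 to 765 ± 81.5 TPM (SD, n = 3), a log2 fold change of 3.03. The summed level of both paralogs was 139 ± 12.7 TPM in Luc *TRA2A* KO, 195 ± 6.37 TPM in Luc Control KO and 1023 ± 14.5 TPM in TRA2B-OE *TRA2A* KO (SD, n = 3).

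*TRA2A* RNA, the target of the guides, was low in both groups and somewhat higher with added *TRA2B*. Its level was 50.7, 51.3 and 42.4 TPM in TRA2B-OE *TRA2A* KO and 33.9, 34.3 and 38.3 TPM in Luc *TRA2A* KO. All 6 values lay below the 101 to 113 TPM of Luc Control KO and the 88.2 to 93.7 TPM of TRA2B-OE Control KO. With *TRA2A* cut, *TRA2A* rose by 0.37 ± 0.08 on the log2 scale (adjusted p = 0.0133), while under Control KO it fell by 0.32 (adjusted p = 0.0458). The difference of these effects was 0.68 ± 0.11 with an adjusted p of 0.116, which did not pass the threshold of 0.05. The rise after *TRA2A* KO was not called without TRA2B-OE *TRA2A* KO replicate 1 (adjusted p = 0.0552) or replicate 2 (adjusted p = 0.0587). An exact two-sided permutation test over the 6 libraries gave p = 0.1 for *TRA2A* and for *TRA2B*, the smallest it can give. kallisto divides reads that fit both paralogs by estimation, and RNA from edited alleles is still counted, so the level of *TRA2A* RNA is not the share of cut alleles.

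**Figure D1:**
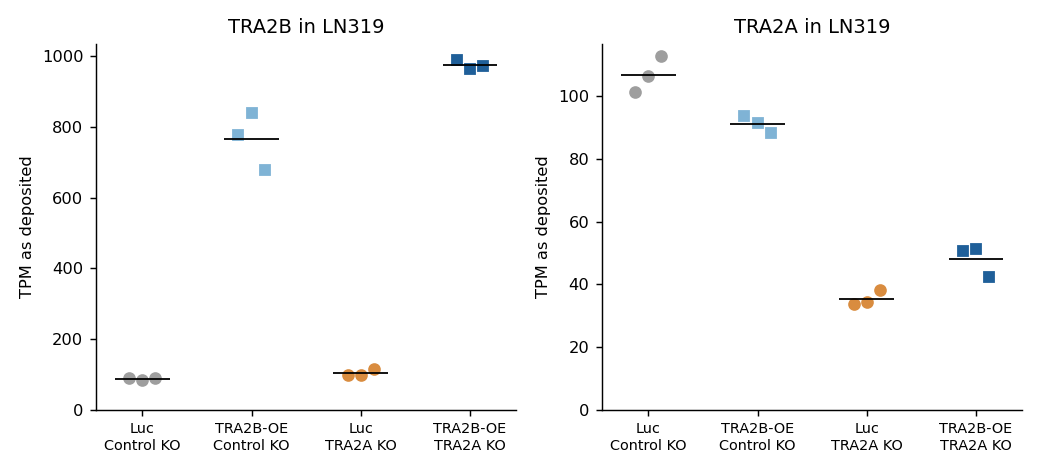
TPM as deposited of *TRA2B* (left) and *TRA2A* (right) in each of 3 libraries of 4 LN319 groups (points), with the group mean (line); both axes start at 0. *TRA2B* averages 975 TPM in TRA2B-OE *TRA2A* KO against 104 TPM in Luc *TRA2A* KO, and *TRA2A* is at most 51.3 TPM in both.

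Across the transcriptome, many genes differed by small amounts between TRA2B-OE and Luc after *TRA2A* KO, and more DEGs were up than down. Of 19303 genes tested, 1103 rose (5.71%) and 963 fell (4.99%) at an adjusted p under 0.05, and 1205 of these 2066 changed by less than 0.5 on the log2 scale. With TPM as deposited, without scaling between libraries, the split was 1500 up and 640 down. DEGs, which also needed an absolute log2 fold change above 1, numbered 263 (1.36%), 200 up and 63 down, with 173 in all without TRA2B-OE *TRA2A* KO replicate 1. Of the DEGs, 126 up and 41 down were low genes with both group means under 5 TPM, and 99 up and 25 down were protein-coding in the reference annotation. In the other comparisons of LN319, which share libraries with this one, 359 DEGs separated Luc *TRA2A* KO from Luc Control KO and 45 separated TRA2B-OE *TRA2A* KO from TRA2B-OE Control KO.

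The 6 compared libraries had TPM sums between 962430 and 963568, mitochondrially encoded transcripts took 12.5 to 15.1% of the sum, and none was identical to another. Of 15 astrocyte and glioma markers, 6 stayed under 1 TPM in all 6 libraries (*S100B*, *FABP7*, *OLIG1*, *OLIG2*, *SOX10* and *CHI3L1*). The list summed to 5483 to 6006 TPM in TRA2B-OE and 5654 to 5980 TPM in Luc. Of its 9 tested members 6 had a positive log2 fold change (median 0.19), and 1 was called, *CD44*, which fell by 0.25 on the log2 scale and was called in 7 of 14 alternatives. Among markers of other cells, epithelial ones summed to 152 to 174 TPM in TRA2B-OE and 132 to 143 TPM in Luc, where *KRT19* rose by 0.80. Neuron markers summed to 30.0 to 41.5 against 26.3 to 29.2 TPM, where of 2 tested members *GAD1* rose by 0.40 (called in 7 of 14 alternatives) and the other had a log2 fold change of -0.33 and was not called. Endothelial markers summed to at most 1.65 TPM. LN319 is a cultured cell line, and whether these markers came from all or some of its cells was not tested. In bulk RNA, a change in the share of cells and a change per cell cannot be told apart.

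Several of the genes that rose most were MHC class II genes, which encode the proteins that present peptides from outside the cell to helper T cells. This group was put together after the values were seen, because 5 of the 10 leading protein-coding DEGs up belonged to it, and it is described without a test of the group. Classical class II promoters share a Y box, a CCAAT box read on the opposite strand (ATTGG), near sites of the RFX complex, and CIITA is the coactivator recruited there. The 150 bases before the start of 3 members are shown because these genes moved together. Capitals mark CCAAT on either strand (CCAAT or ATTGG), and the sequences are those of RefSeq on GRCh38.p14, not of the alleles of LN319.
HLA-DRB1, chr6:32589849-32589998, minus strand: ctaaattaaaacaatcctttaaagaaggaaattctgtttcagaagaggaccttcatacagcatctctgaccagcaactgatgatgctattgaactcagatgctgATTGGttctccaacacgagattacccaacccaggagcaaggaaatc
HLA-DPB1, chr6:33075840-33075989, plus strand: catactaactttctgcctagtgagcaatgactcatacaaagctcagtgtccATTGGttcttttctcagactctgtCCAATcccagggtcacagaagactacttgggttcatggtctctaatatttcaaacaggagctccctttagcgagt
CD74, chr5:150412911-150413060, minus strand: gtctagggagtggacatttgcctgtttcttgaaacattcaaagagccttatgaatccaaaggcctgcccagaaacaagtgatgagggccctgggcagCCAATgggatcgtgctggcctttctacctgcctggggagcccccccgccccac
Of 9 class II genes tested, 8 had a promoter in the table and 7 of these held the letters, against 23.5% of 35116 promoters of the same length. The inverted form, ATTGG, was in 5 of the 8, against 13.3% of promoters, and the match in *CD74* is CCAAT and not the inverted form. A match of 5 letters is a description of the sequence and not of binding.

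*CD74*, the invariant chain that guides class II molecules through the cell, stood at 49.6, 51.6 and 62.9 TPM in TRA2B-OE *TRA2A* KO and at 10.2, 11.4 and 10.6 TPM in Luc *TRA2A* KO. The groups were far apart, with a log2 fold change of 2.26 ± 0.15 (adjusted p = 4.68e-06). *HLA-DRA*, the alpha chain of HLA-DR, was at 36.6, 36.9 and 45.8 TPM against 8.38, 8.63 and 6.98 TPM, a log2 fold change of 2.23 ± 0.14 (adjusted p = 3.05e-06). *HLA-DRB1*, *HLA-DPB1* and *HLA-DRB5* rose by 2.37, 2.46 and 2.62. *HLA-DRB5* is a near copy of *HLA-DRB1*, so the division of reads between them is uncertain. *HLA-DPA1*, *HLA-DQB1*, *HLA-DMB* and *HLA-DMA*, the last a pair that loads peptides, rose by 1.85, 1.51, 1.77 and 1.33. In all, 9 of 9 were called up, beside 5.71% of all genes tested, with a median log2 fold change of 2.23 beside -0.03. The group was chosen from these same values, so this count is not a test of it.

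*CIITA*, the coactivator that switches class II genes on, was at 13.7, 14.5 and 10.02 TPM with added *TRA2B* and at 7.62, 5.91 and 5.22 TPM in Luc, a log2 fold change of 0.95 ± 0.18 (adjusted p = 0.00674). Of its 3 RFX partners (*RFX5*, *RFXANK* and *RFXAP*) 0 were called by limma, and 0 had an unadjusted p under 0.05. Of the class I presentation genes *HLA-B*, *HLA-C*, *HLA-E*, *HLA-F*, *B2M*, *TAP1* and *TAP2*, 0 of 7 were called by limma, with log2 fold changes from -0.29 to 0.10 and 0 with an unadjusted p under 0.05. Leukocyte markers summed to 30.8 to 36.6 TPM in TRA2B-OE and 42.8 to 47.2 TPM in Luc. The pan-leukocyte gene *PTPRC*, the T cell gene *CD3E* and the macrophage gene *AIF1* were under 1 TPM in all 6 libraries, and *CD68* fell by 0.52 (adjusted p = 0.0233).

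Under Control KO the same 9 class II genes were also called up (background 2.14%), with log2 fold changes of 1.04 to 2.07. *CD74* went there from 16.4 to 19.2 TPM in Luc to 56.5 to 81.0 TPM in TRA2B-OE. In 0 of 9 did limma call the effect different after *TRA2A* KO, with 1 at an unadjusted p under 0.05. Of all 19303 genes tested, 1530 had such a p for the difference. In LN229 the levels were much higher and the direction was opposite. *CD74* averaged 1757 ± 19.5 TPM in LN229 TRA2B-OE *TRA2A* KO and 2477 ± 428 TPM in its Luc counterpart (SD, n = 3). In LN229, 8 of the 9 genes were called down (background 3.25%), by 0.56 (*CD74*) to 1.48 (*HLA-DRB5*). The tables of the lines were scaled separately, and the difference between the lines was not tested.

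**Figure D2:**
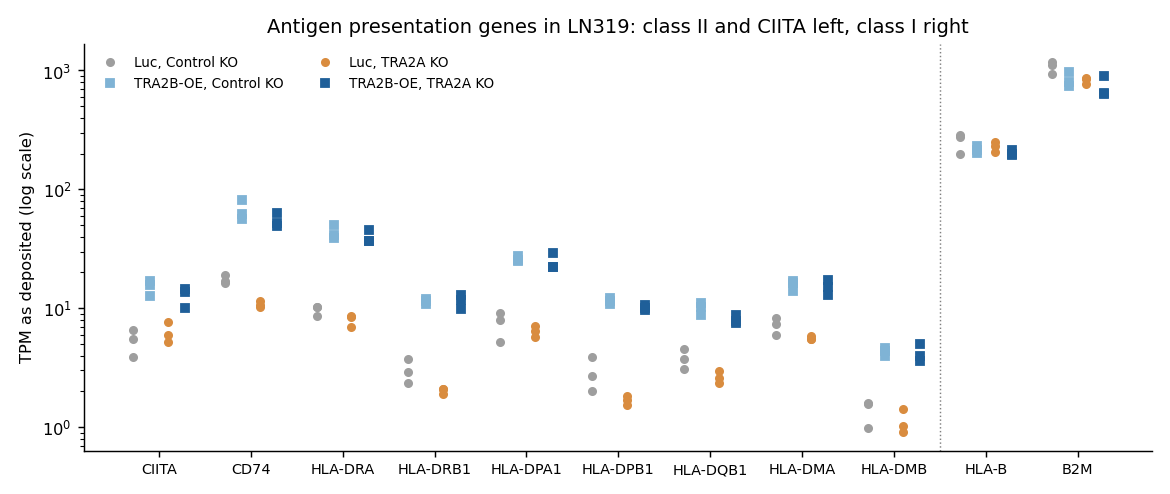
TPM as deposited (log scale) of class II genes and *CIITA* (left of the dotted line) and of class I genes (right) in each library of 4 LN319 groups. In both backgrounds the squares (TRA2B-OE) of the class II genes lie above the circles (Luc), whereas those of *HLA-B* and *B2M* lie in the same range.

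The other 5 of the 10 leading protein-coding DEGs up were *COL1A1*, *TGFBI*, *MT1G*, *HPX* and *PYGM*. *COL1A1*, the alpha-1 chain of type I collagen, was at 103, 105 and 95.1 TPM in TRA2B-OE *TRA2A* KO and at 24.7, 24.5 and 19.3 TPM in Luc *TRA2A* KO, with a log2 fold change of 2.08 ± 0.07 (adjusted p = 2.38e-09). *TGFBI*, a secreted matrix protein induced by TGF-beta, was at 48.9, 47.9 and 41.7 TPM against 11.8, 11.4 and 10.8 TPM, a log2 fold change of 1.95 ± 0.14. For both genes the lowest TRA2B-OE library was more than 3 times the highest Luc library. *MT1G*, a metal-binding metallothionein, had the largest log2 fold change of these genes (3.41 ± 0.52) and spread widely, at 16.0, 14.2 and 5.88 TPM against 1.47, 0.311 and 1.45 TPM. *HPX*, which encodes the haem carrier hemopexin, rose by 2.39 ± 0.19 and *PYGM*, muscle glycogen phosphorylase, by 2.20 ± 0.36. In all, 48 protein-coding DEGs up met the conditions for leading genes. These were a mean of at least 5 TPM in the higher group and no overlap between groups after scaling. In TPM as deposited, with no condition on the mean, the groups did not overlap for 18% (higher in TRA2B-OE) and 11.2% (lower) of all genes tested. Those shares are of unscaled values and so are not the background of the conditions.

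Only 7 protein-coding DEGs down met the same conditions. *PNOC*, the precursor of the neuropeptide nociceptin, was at 8.77, 9.37 and 8.99 TPM in TRA2B-OE *TRA2A* KO and at 35.2, 38.6 and 34.8 TPM in Luc *TRA2A* KO, and fell by 2.06 ± 0.10 on the log2 scale (adjusted p = 2.88e-07). *SLC13A3*, a sodium-coupled dicarboxylate transporter, was at 1.38, 1.35 and 1.63 TPM against 5.91, 5.4 and 4.72 TPM and fell by 1.88 ± 0.20. *SST*, which encodes the hormone somatostatin, was high in both groups, at 161, 149 and 278 TPM against 391, 450 and 562 TPM, and fell by 1.37 ± 0.28. The call for *SST* was lost under 1 alternative of 14 (adjusted p = 0.0513). *GUCA1B*, a calcium sensor of guanylate cyclase, *P2RX5*, an ATP-gated channel, *SELPLG*, the ligand of P-selectin, and *ABHD14B* fell by 1.12, 1.07, 1.07 and 1.04.

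Of the gene lists, the extracellular matrix and its receptors showed the most calls in one direction. Over all genes tested, 5.71% were called up and 4.99% down, the shares to set beside the count of each list. At an unadjusted p under 0.05 (limma, either direction) were 5273 of the 19303 genes after *TRA2A* KO and 4826 under Control KO. For the difference of the overexpression effects the number was 1530. The unadjusted counts of the lists are to be set beside these. Collagens and matrix proteins had 14 of 34 tested members up and 0 down, with a median log2 fold change of 0.27 beside -0.03 over all genes. Besides *COL1A1* and *TGFBI*, *COL5A1*, which starts collagen fibrils, rose by 1.62 ± 0.16 and *COL8A1*, a network collagen, rose by 1.13 ± 0.15. *COL8A1* was at 80.8, 91.7 and 72.5 TPM against 42.5, 36.6 and 28.4 TPM. By limma 0 were called down, and 2 had an unadjusted p under 0.05 in that direction. Integrins, the receptors for matrix, and laminins, their ligands in basement membranes, had 10 of 19 up and 0 down, and 0 with an unadjusted p under 0.05 downward. *LAMB3* rose by 1.26 ± 0.28, *ITGA10* by 1.12 ± 0.23, *ITGB4* by 1.03 ± 0.11 and *ITGA2* by 0.73 ± 0.10. Without TRA2B-OE *TRA2A* KO replicate 1 or 2, or without Luc *TRA2A* KO replicate 3, 6 of the integrins and laminins were called.

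**Figure D3:**
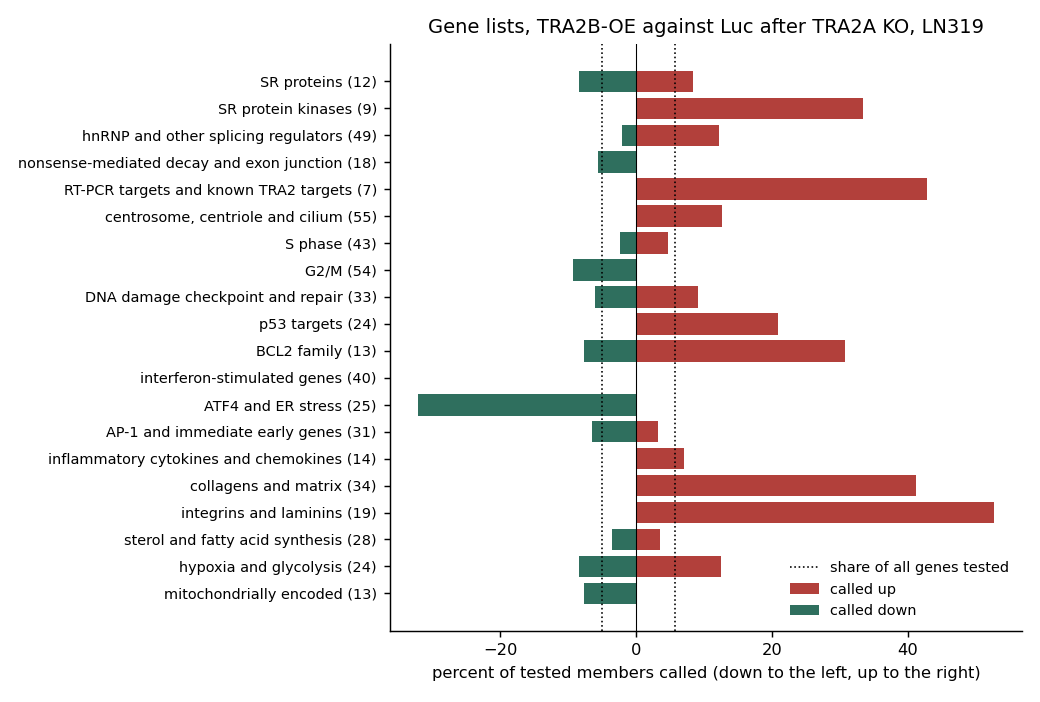
Percent of the tested members of each gene list (number in brackets) that were called up (right) or down (left) with added *TRA2B* after *TRA2A* KO in LN319. Dotted lines give the share of all genes tested, 5.71% up and 4.99% down. Integrins and laminins (10 of 19) and collagens and matrix (14 of 34) stand out upward and ATF4 and ER stress genes (8 of 25) downward.

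Matrix genes rose under Control KO too, with 13 of the 34 called up (background 2.14%) and 0 down (background 2.16%, and 2 downward at an unadjusted p under 0.05 by limma). *COL1A1* and *TGFBI* changed there by 1.67 and 1.87. Integrins and laminins had 6 of 19 up and 0 down under Control KO (1 downward at an unadjusted p under 0.05). In LN229 after *TRA2A* KO, 2 of 39 matrix genes were up and 3 down, against 4.39% up and 3.25% down of all 18490 genes tested there. *COL8A1* went the other way in that line, with a log2 fold change of -0.55. *COL1A1*, *COL5A1* and *TGFBI* had log2 fold changes of 0.57, 0.76 and -0.13 there and were not called.

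ATF4 and ER stress genes moved in the opposite direction. Their products restore amino acid supply and protein folding. In this list 8 of 25 members fell and 0 rose (0 upward at an unadjusted p under 0.05 by limma), with a median log2 fold change of -0.22. *SLC7A5*, the large neutral amino acid transporter, was at 63.7, 60.3 and 52.2 TPM in TRA2B-OE *TRA2A* KO and at 83.8, 83.6 and 101 TPM in Luc *TRA2A* KO, and fell by 0.68 ± 0.12 (adjusted p = 0.00472). *PSAT1*, of serine synthesis, fell by 0.66 ± 0.08, *CHAC1*, which degrades glutathione, by 0.67 ± 0.13 and *ASNS*, asparagine synthetase, by 0.59 ± 0.08. All 4 genes, named as the called members of largest change, had groups that did not overlap in TPM as deposited. Of all genes tested, 11.2% were separated in that direction. Without TRA2B-OE *TRA2A* KO replicate 1 or 2, 5 members were called. Under Control KO 2 of the 25 fell (background 2.16%), with 8 downward and 1 upward at an unadjusted p under 0.05 by limma. In 0 of 25 did limma call the effect different after *TRA2A* KO, with 8 at an unadjusted p under 0.05. Over all 19303 genes tested, 1530 had such a p for the difference. In LN229 after *TRA2A* KO 6 rose (background 4.39%) and 1 fell (background 3.25%), with a median log2 fold change of 0.10. Against Luc Control KO, 18 of the 25 were higher in Luc *TRA2A* KO (background 7%), a comparison that shares the Luc *TRA2A* KO libraries. *SLC7A5* changed there by 1.40, *ASNS* by 0.75, and TRA2B-OE *TRA2A* KO differed from Luc Control KO by 0.72 and 0.16.

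Genes with a known TRA2-dependent exon were next examined, since the exon itself cannot be read from gene-level TPM. The exons that the listed RT-PCR primers flank in *OFD1*, *CNTRL* and *CHEK1* are shown because the RNA of 2 of the 3 genes rose with added *TRA2B*. Capitals mark each AGAA on the strand of the gene, overlapping matches included (positions on hg38, plus strand).
OFD1, exon 20, chrX:13767127-13767284: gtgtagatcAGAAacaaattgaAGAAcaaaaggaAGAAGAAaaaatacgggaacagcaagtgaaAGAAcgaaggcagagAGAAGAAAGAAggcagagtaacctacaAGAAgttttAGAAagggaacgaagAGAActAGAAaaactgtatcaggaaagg
CNTRL, exon 5 of the canonical transcript, chr9:121094888-121095018: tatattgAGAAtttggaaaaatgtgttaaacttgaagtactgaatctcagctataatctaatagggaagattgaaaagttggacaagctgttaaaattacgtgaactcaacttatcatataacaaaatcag
CHEK1, exon 3, chr11:125627607-125627830: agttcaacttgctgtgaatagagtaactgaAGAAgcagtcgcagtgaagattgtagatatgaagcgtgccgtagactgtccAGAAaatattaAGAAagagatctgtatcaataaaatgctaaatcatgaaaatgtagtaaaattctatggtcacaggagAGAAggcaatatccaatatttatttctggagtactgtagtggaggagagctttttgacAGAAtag
The 158 bases of the *OFD1* exon held 12 AGAA, a number that 0.0299% of 16749 internal coding exons within 10 bases of that length reached. The *CHEK1* exon (224 bases) held 5, a number that 9.74% of 4291 exons of like length reached. The *CNTRL* exon (131 bases) held 1, and 63.8% of 22832 exons held at least 1. None of the 3 lengths is a multiple of 3, so that skipping would shift the reading frame.

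*OFD1*, a centriole protein that caps its distal end, was at 30.3, 33.2 and 29.2 TPM in TRA2B-OE *TRA2A* KO and at 23.1, 21.8 and 18.7 TPM in Luc *TRA2A* KO. The groups did not overlap and the log2 fold change was 0.47 ± 0.06 (adjusted p = 0.000758). *CNTRL*, which encodes centriolin of the mother centriole, was at 17.3, 16.7 and 14.7 TPM against 12.95, 10.7 and 10.4 TPM and rose by 0.45 ± 0.09 (adjusted p = 0.00638). *NASP*, a histone chaperone, was at 362, 374 and 377 TPM against 295, 286 and 290 TPM and rose by 0.28 ± 0.06 (adjusted p = 0.00942). *CHEK1*, the checkpoint kinase, was at 45.8, 43.0 and 45.7 TPM against 44.8, 41.9 and 48.2 TPM (adjusted p = 0.653). *CEP192*, *SMN1* and *SMN2* had log2 fold changes of 0.11, -0.08 and -0.05 and were not called, and reads are uncertain between the near-identical *SMN1* and *SMN2*. So 3 of the 7 genes in the list rose, beside 5.71% of all genes, and this count was 3 without any one of the 6 libraries. In Luc *TRA2A* KO against Luc Control KO, which shares libraries, 4 of the 7 genes were lower (background 7.25%). *OFD1*, *CNTRL*, *NASP* and *CEP192* changed there by -0.54, -0.38, -0.43 and -0.25. TRA2B-OE *TRA2A* KO differed from Luc Control KO by -0.06, 0.07, -0.14 and -0.14 for these genes. With added *TRA2B* under Control KO, *OFD1*, *CNTRL* and *SMN2* changed by 0.22, 0.19 and -0.44. These 3 had an unadjusted p under 0.05 there, and 0 of the 7 were called by limma. In 0 of 7 did limma call the effect different after *TRA2A* KO, with 3 at an unadjusted p under 0.05. In LN229 after *TRA2A* KO 0 of the 7 were called, with *OFD1* at 0.37 and a median of -0.16.

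Centrosome, centriole and cilium genes, a list that includes *OFD1* and *CNTRL*, had 7 of 55 members up, beside 5.71% of all genes. Down were 0, with 2 downward at an unadjusted p under 0.05 by limma. *IFT172*, which carries cargo along cilia, rose most, at 55.8, 55.6 and 44.6 TPM against 31.6, 32.9 and 28.4 TPM (log2 fold change 0.67 ± 0.09). *CEP290*, of the ciliary transition zone, rose by 0.65 ± 0.15. The count was 4 without TRA2B-OE *TRA2A* KO replicate 1 or 2 or without Luc *TRA2A* KO replicate 3. Under Control KO 2 of the 55 were called up (background 2.14%), with *IFT172* at 0.50. Down were 0 there, with 4 downward at an unadjusted p under 0.05 by limma. In 0 of 55 did limma call the effect different after *TRA2A* KO, with 9 at an unadjusted p under 0.05.

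**Figure D4:**
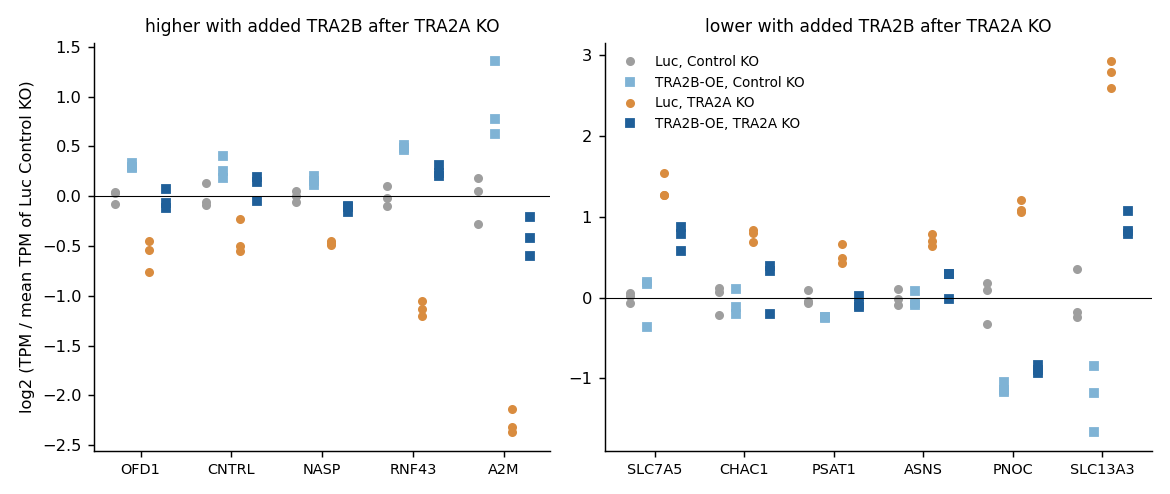
Level of each library in log2 (TPM divided by the mean TPM of Luc Control KO) for genes higher (left) and lower (right) with added *TRA2B* after *TRA2A* KO, in 4 LN319 groups. For *OFD1*, *CNTRL*, *NASP* and *RNF43* the Luc *TRA2A* KO libraries (orange circles) are the lowest of their groups, and for *SLC7A5*, *ASNS* and *SLC13A3* the highest.

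Calls among splicing regulators were of small changes, at most 0.32 on the log2 scale. Of 12 SR proteins, *SRSF11* rose by 0.25 ± 0.06 and *SRSF8* fell by 0.26 ± 0.07, and 10 were not called. Of 14 alternatives, *SRSF8* was called in 3 and *SRSF11* in 9. Kinases that phosphorylate SR proteins had 3 of 9 up, beside 5.71% of all genes, and 0 down (1 downward at an unadjusted p under 0.05 by limma). *CLK1* was at 84.1, 85.1 and 69.9 TPM against 64.8, 59.0 and 58.0 TPM and rose by 0.32 ± 0.07, *CLK4* by 0.31 ± 0.09 and *CLK2* by 0.29 ± 0.04. Without TRA2B-OE *TRA2A* KO replicate 1 or 2, 1 kinase was called. Under Control KO *CLK1* rose by 0.42 and was the only kinase called. In 0 of 9 did limma call the effect different after *TRA2A* KO, with 0 at an unadjusted p under 0.05. Of 49 hnRNP and other regulators, 6 rose and 1 fell, beside 5.71% and 4.99% of all genes, among them *SON* (0.31), *U2AF2* (0.29), *HNRNPH1* (0.24) and *KHDRBS3* (-0.27). The rise was called for 1 without TRA2B-OE *TRA2A* KO replicate 2, 2 without Luc *TRA2A* KO replicate 2 and 3 without TRA2B-OE *TRA2A* KO replicate 1 or Luc *TRA2A* KO replicate 3. Of 18 genes of NMD and the exon junction, 0 rose (2 upward at an unadjusted p under 0.05 by limma) and *UPF3B* fell by 0.22 ± 0.06, a call kept in 5 of 14 alternatives.

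Proliferation genes moved by less than 0.5 on the log2 scale. Of 54 G2/M genes 5 fell, beside 4.99% of all genes, and 0 rose (1 upward at an unadjusted p under 0.05 by limma). The members that fell most were *CBX5* (-0.30 ± 0.05), *RANGAP1* (-0.26), *AURKA* (-0.26) and *CTCF* (-0.25). The count of G2/M genes down was 1 without TRA2B-OE *TRA2A* KO replicate 1 or Luc *TRA2A* KO replicate 3. It was 2 without TRA2B-OE *TRA2A* KO replicate 2, 3 without Luc *TRA2A* KO replicate 2 and 8 without TRA2B-OE *TRA2A* KO replicate 3. Of 43 S phase genes 2 rose (*BRIP1* and *NASP*) and 1 fell, beside 5.71% and 4.99% of all genes. *HELLS* fell by 0.31, and *BRIP1* was called in 7 of 14 alternatives. Without TRA2B-OE *TRA2A* KO replicate 3, 4 S phase genes were down, and without replicate 1 or 2, 0 were. DNA damage genes had 3 up (*MRE11A*, *TP53BP1* and *RIF1*, by 0.27 to 0.29) and 2 down of 33, beside 5.71% and 4.99% of all genes. Without TRA2B-OE *TRA2A* KO replicate 1 or 2, 0 were up. The 2 down became 1 without TRA2B-OE *TRA2A* KO replicate 2 or 3 and 0 without TRA2B-OE *TRA2A* KO replicate 1 or any 1 Luc library.

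The 24 p53 targets had a median log2 fold change of -0.06. Of these 5 rose, beside 5.71% of all genes, and 0 fell (4 downward at an unadjusted p under 0.05 by limma). The count was 3 without TRA2B-OE *TRA2A* KO replicate 1 and 2 without replicate 2. The members that rose most were *BBC3* (0.49 ± 0.13), a BH3-only trigger of apoptosis, the kinase gene *PLK2* (0.42), *TP53INP1* (0.41) and *DDB2* (0.33), of nucleotide excision repair. In the BCL2 family 4 of 13 rose and 1 fell, beside 5.71% and 4.99% of all genes. *BIK*, another BH3-only gene, was at 12.9, 12.1 and 12.3 TPM against 7.14, 6.93 and 7.43 TPM and rose by 0.72 ± 0.10 (adjusted p = 0.00132), *BMF* rose by 0.62 ± 0.18, and *BCL2L2*, which protects from apoptosis, fell by 0.22 (called in 5 of 14 alternatives). Without TRA2B-OE *TRA2A* KO replicate 1 or 2, 1 member was up, and without Luc *TRA2A* KO replicate 3, 2 were. Under Control KO *PLK2* rose by 0.49 and *BMF* by 0.69, the only members called of the p53 and BCL2 lists. Limma called the effect different after *TRA2A* KO in 0 members of either list, with 4 and 2 at an unadjusted p under 0.05.

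Interferon-stimulated genes, of antiviral defence, had 0 of 40 members called up or down by limma (2 upward and 3 downward at an unadjusted p under 0.05), with a median of -0.07 and a range from -1.42 to 0.61. Of the same 40, 21 were lower in Luc *TRA2A* KO than in Luc Control KO (background 7.25%), with a median of -0.96. With added *TRA2B* under Control KO, 0 were called up and 2 down (background 2.14% and 2.16%), with a median of -0.49. At an unadjusted p under 0.05 by limma, 0 were upward and 15 downward there. Of 31 AP-1 and immediate early genes *NR4A1* rose by 0.43 and *SPRY2* and *JUN* fell by 0.29 and 0.19. The count down was 5 without TRA2B-OE *TRA2A* KO replicate 3 and 1 without TRA2B-OE *TRA2A* KO replicate 1 or Luc *TRA2A* KO replicate 3. Of 14 cytokines and chemokines tested, *CXCL8* rose by 1.47 ± 0.32 from a low level, at 2.35, 2.27 and 3.17 TPM against 0.637, 1.26 and 0.687 TPM. Of 24 hypoxia and glycolysis genes 3 rose and 2 fell, beside 5.71% and 4.99% of all genes, with a median log2 fold change of -0.01. The glucose transporter genes *SLC2A3* and *SLC2A1* rose by 0.77 ± 0.10 and 0.55 ± 0.07, the histone demethylase gene *KDM3A* rose by 0.28 (called in 7 of 14 alternatives), and the vasodilator gene *ADM* fell by 0.53. Without TRA2B-OE *TRA2A* KO replicate 1 or 2, or Luc *TRA2A* KO replicate 1 or 2, 1 fell. Of 28 sterol and fatty acid genes *SREBF1* rose by 0.40 and *ACACA* fell by 0.21, called in 8 and 4 of 14 alternatives. Of 13 mitochondrially encoded genes *MT-ND6* fell by 0.86 ± 0.13.

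Whether the response to *TRA2B* depended on *TRA2A* KO was tested as the difference of the overexpression effects in both backgrounds. Under Control KO there were 94 DEGs up and 40 down. DEGs in the same direction numbered 57, which is 21.7% of the 263 after *TRA2A* KO and 42.5% of the 134 under Control KO, and 2 had opposite directions. These comparisons share no library, but they compare the same Luc and TRA2B-OE populations and come from the same fit. A difference between populations and an effect of *TRA2B* cannot be told apart in either. Of the 200 DEGs up after *TRA2A* KO, 189 had a positive log2 fold change under Control KO, and of the 63 down, 54 had a negative one. Over all genes tested the median under Control KO was -0.02, and the share with a positive value was not counted. The median log2 fold change of the 200 was 1.41 after *TRA2A* KO and 0.77 under Control KO, where the first value is the one that chose them.

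**Figure D5:**
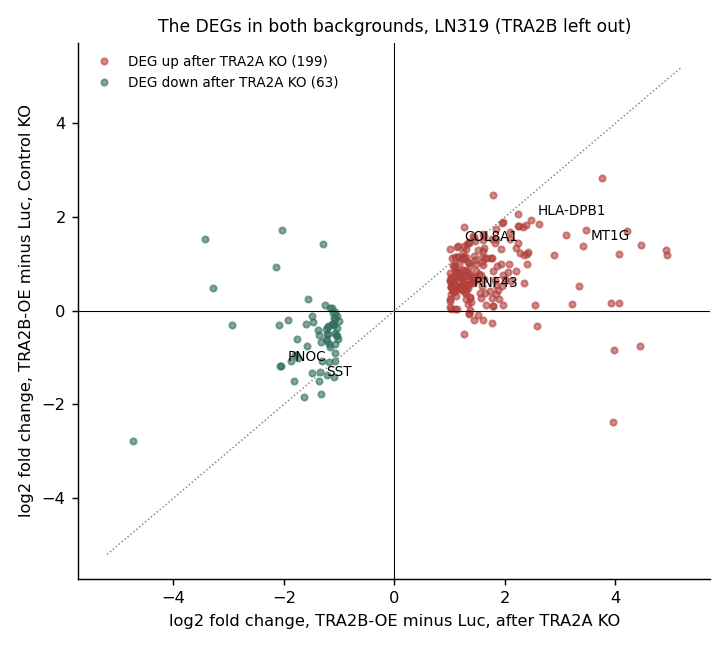
Each point is a DEG of the comparison after *TRA2A* KO, *TRA2B* left out, with its log2 fold change after *TRA2A* KO (horizontal) and under Control KO (vertical); the dotted line marks equal changes. Of the DEGs up, 189 of 200 (with *TRA2B*) lie above 0 on the vertical axis, and of those down, 54 of 63 lie below.

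The difference itself was called for 4 genes (0.0207% of those tested), with 1530 at an unadjusted p under 0.05. *RNF43*, a ubiquitin ligase that removes Wnt receptors from the cell surface, was at 23.9, 22.2 and 22.6 TPM in TRA2B-OE *TRA2A* KO and at 8.34, 8.80 and 9.27 TPM in Luc *TRA2A* KO. Under Control KO it was at 26.9, 26.6 and 27.5 TPM with TRA2B-OE and 19.1, 20.7 and 18.1 TPM with Luc. Luc *TRA2A* KO was thus the lowest group, and the log2 fold change with added *TRA2B* was 1.30 after *TRA2A* KO and 0.40 under Control KO, a difference of 0.90 (adjusted p = 0.0178). The lncRNA *LINC01133* was at 82.1, 74.9 and 70.0 TPM against 52.5, 50.9 and 47.0 TPM after *TRA2A* KO and between 81.2 and 86.4 TPM in all 6 Control KO libraries, a difference of 0.59 (adjusted p = 0.0178).

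The other two are clone-based transcripts that were not matched to the annotation. *RP11-477H21.2* was at 6.23, 4.81 and 6.37 TPM against 1.54, 2.10 and 1.63 TPM (difference 1.80, adjusted p = 0.0185). The second was at 2.14, 2.00 and 0.676 TPM with TRA2B-OE, was listed at 0 in all 3 Luc *TRA2A* KO libraries, and under Control KO was at 0.0646, 0.0607 and 0.130 TPM with TRA2B-OE and 0.648, 1.20 and 0.683 TPM with Luc. Its levels were thus higher in TRA2B-OE after *TRA2A* KO and lower under Control KO, near or below 2 TPM throughout. *ERCC6*, of transcription-coupled repair, had the next smallest p and was not called (difference -0.65, adjusted p = 0.0627). Without Luc Control KO replicate 2, 0 genes were called by limma (1610 at an unadjusted p under 0.05). There was 1 without Luc Control KO replicate 1 and there were 2 without TRA2B-OE *TRA2A* KO replicate 3, Luc *TRA2A* KO replicate 3 or TRA2B-OE Control KO replicate 2.

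The 8 protein-coding genes that differed most between Luc *TRA2A* KO and Luc Control KO were followed as values, since that comparison shares libraries with this one. *A2M*, a broad protease inhibitor, was at 22.5, 19.9 and 25.9 TPM in TRA2B-OE *TRA2A* KO, 6.82, 5.82 and 6.05 TPM in Luc *TRA2A* KO and 31.2, 34.2 and 24.8 TPM in Luc Control KO. It rose by 1.78 ± 0.18 with added *TRA2B* (adjusted p = 0.000132). *SLC13A3*, described above, was at 0.660, 0.995 and 0.688 TPM in Luc Control KO. The other 6 were not called with added *TRA2B*. Of these, *CA9*, a carbonic anhydrase, was at 1.52, 1.10 and 1.73 TPM against 0.537, 1.30 and 0.630 TPM, with 9.28, 6.37 and 4.62 TPM in Luc Control KO. *KCNK1*, a potassium channel, averaged 9.48 ± 0.736 TPM with TRA2B-OE and 9.70 ± 2.51 TPM with Luc (SD, n = 3). *P2RY6*, *C5orf46*, *MGP* and *CPA4* had log2 fold changes of -0.34, 0.61, 0.76 and -0.47.

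In LN229 the same comparison gave 250 DEGs up and 56 down (1.65% of 18490 genes). *TRA2B* went there from 251 ± 7.33 to 1053 ± 127 TPM (SD, n = 3), and *TRA2A* was at 68.8 ± 4.82 TPM with Luc and 69.9 ± 5.2 TPM with TRA2B-OE (log2 fold change -0.06, adjusted p = 0.684). Among the 16426 genes tested in both lines, 48 were DEGs in the same direction (45 up and 3 down), which is 28.4% of the 169 LN319 DEGs and 20.3% of the 237 LN229 DEGs among them. Only *HLA-DRB5* was a DEG in opposite directions. Besides *TRA2B*, the genes with the strongest support in both lines were *ENO1-IT1*, *RP11-635L1.2*, *RP11-333J10.3*, *CCDC150P1*, *BNIPL*, *TGM1* and *KB-1460A1.5*. *TGM1*, a transglutaminase that crosslinks proteins, was at 27.3, 27.0 and 18.0 TPM against 11.4, 10.1 and 8.71 TPM in LN319 and changed by 1.16 in LN319 and 1.16 in LN229. *ENO1-IT1*, a transcript from an intron of the enolase gene, changed by 2.24 and 2.79.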

How the data were processed

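Polyadenylated RNA was sequenced as directional paired-end libraries. Per the labels, kallisto 0.48.0 was used on GRCh38, and what the authors deposited is TPM per gene, on Gencode v34 by the methods. TPM are shares of a library and keep no depth, so the precision of a value is given by the spread of 3 replicates. STAR 2.7.3, which the labels also name, does not bear on TPM. The study's own tests used limma-voom on counts, which were not used here.

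The filter kept names that reached 1 TPM in 4 or more of the 15 libraries of a line, 19303 of 55906 in LN319. Values were scaled by a trimmed mean of log ratios (30% of ratios and 5% of abundances trimmed), and 1 limma 3.58.1 model (R 4.3.3) held the 5 groups of a line on log2(TPM + 0.1), with a mean-variance trend, two-sided tests and Benjamini-Hochberg adjustment over all genes. Called genes had an adjusted p under 0.05, and DEGs also an absolute log2 fold change above 1. TPM values in the text are unscaled. On simulated data for the LN319 comparison after *TRA2A* KO (19303 genes, 200 changed 4-fold), 88% were recovered with 1 false DEG. The simulated noise was normal and independent between genes and libraries. It held no variation shared by the genes of a library and no smaller changes, so it does not give the error rate of the real calls.

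The comparison, the gene lists and the rules were chosen with earlier results of these data known. Named genes are both paralogs, at most 4 called members of each list by size of change (all of the RT-PCR list), at most 10 leading protein-coding DEGs each way, 5 genes of smallest p in the difference of effects, at most 8 DEGs shared with LN229 and at most 8 genes of largest change in Luc *TRA2A* KO. Names were matched to Gencode v44 (33975 of 55904 by name and 1401 by a RefSeq synonym), and 28 that a spreadsheet had turned into dates were left unnamed. Alternatives tried were pseudocounts of 0.5 and 1, no filter or at least 5 TPM, no scaling or quantile normalization, only the compared groups, no minimum fold change, the replicate number as a block, and each library left out. Sequences were read with Python 3.11.15 and figures drawn with matplotlib 3.10.9. The A549 and NCI-H23 tables were not used here. 1 item measured in these files is not reported here.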

Additional observations from a re-analysis of the deposited data

Results flagged for a closer look

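Effects of added *TRA2B* that differed between backgrounds or lines were looked at again. In LN319 the difference between *TRA2A* KO and Control KO had an adjusted p of 0.00945 for the clone-based transcript listed at 0 in Luc *TRA2A* KO, 0.0178 for *RNF43* and *LINC01133* and 0.0185 for *RP11-477H21.2* (limma). That transcript (adjusted p under Control KO 0.0217) and *TRA2A* (0.0458) moved one way after *TRA2A* KO and the other way under Control KO, with no overlap between groups in either background. For *TRA2A* the difference was not called (adjusted p = 0.116, limma). Its rise after *TRA2A* KO was not called without TRA2B-OE *TRA2A* KO replicate 1 or 2.

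After *TRA2A* KO, each library of the following genes lay on one side in LN319 and on the opposite side in LN229, a difference that was not tested. The log2 fold changes in LN229 were -0.56 for *CD74*, -0.67 for *HLA-DRA*, -0.66 for *HLA-DRB1*, -1.48 for *HLA-DRB5*, -0.60 for *HLA-DPA1*, -0.90 for *HLA-DPB1*, -0.79 for *HLA-DQB1* and -0.66 for *HLA-DMA*, all of which rose in LN319. *COL8A1* had -0.55 in LN229, and *CHAC1* and *CD68*, which fell in LN319, had 0.46 and 0.51.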

How the results depend on the processing

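TPM keep no depth, so low values, most DEGs among them, are the least certain, and with 3 libraries a group a call can rest on 1 library. With no minimum fold change the DEG counts were 2066 (LN319 after *TRA2A* KO), 830 (Control KO) and 1412 (LN229). A pseudocount of 1 gave 134 and 77 in LN319, and a minimum of 5 TPM gave 106, 68 and 112. With only the compared groups fitted, the LN319 counts were 154 and 33, the difference of effects was called for 0 genes (1317 at an unadjusted p under 0.05, limma), and *TRA2A* had a log2 fold change of 0.39 with an adjusted p of 0.0691. Without a filter the difference was called for 17 genes (9 up and 8 down). Leaving out 1 library gave 173 to 293 DEGs after *TRA2A* KO, 48 to 211 under Control KO, 174 to 272 in LN229, 0 to 6 called differences, and log2 fold changes of 0.33 to 0.46 for *TRA2A* and 3.12 to 3.29 for *TRA2B*. The count under Control KO was 48, 71 and 211 without TRA2B-OE Control KO replicates 1, 2 and 3 and 81 without Luc Control KO replicate 1. The LN229 count was 174 and 203 without TRA2B-OE *TRA2A* KO replicates 2 and 3 and 203 without Luc *TRA2A* KO replicate 2. No called gene that was named changed sign under an alternative. Over all recomputed values of the named genes, direction and call were kept in 1395, the call was lost in 198 and gained in 1, and in 20 a value that was not called changed sign. Counts of list members stayed within 1.5 times the reported count in 506 cases and moved further in 194.

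Replicate numbers are shared between groups, but for numbers 1 and 2 they did not pair the libraries. The deviations of same-numbered libraries of the compared groups correlated at 0.0021, 0.030 and 0.099, and numbers 1 and 2 correlated better with another number. Number 3 correlated better with its own number than with another (at most -0.047). Same-numbered libraries under Control KO correlated at -0.0091, -0.015 and -0.033. Replicate 3 had the lowest scaling factor of its group in both backgrounds (0.949 and 0.904 after *TRA2A* KO, 1.00 and 0.958 under Control KO, TRA2B-OE first). With the replicate block there were 282 DEGs after *TRA2A* KO, 184 under Control KO and 348 in LN229, and 4 called differences.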
